A study of Homo sapiens with 2 samples.

Results

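Clusters that lay outside all annotated genes were examined in YB-1 PAR-CLIP of HEK293T wt cells, a human embryonic kidney line. YB-1 is an RNA-binding protein with a cold shock domain, known as a component of messenger ribonucleoprotein particles. In PAR-CLIP, cells build 4-thiouridine into new RNA, long-wave UV light links it to bound protein, and the linked base is read as C instead of T. Both replicates (Rep.A and Rep.B) received 100 µM 4-thiouridine for 16 h, followed by a UV dose of 0.15 J/cm2 at 365 nm. There was 1 condition with 2 replicates and no control library, so no test between groups was possible and the results are described. A cluster was taken when its position overlapped the span of no GENCODE release 44 gene on either strand. The mitochondrial chromosome was left out, as was a stretch of chromosome 21 with ribosomal RNA genes, which starts at position 8200000 and is 260000 bases long. This selected 107 of 1382 clusters in Rep.A and 231 of 2011 clusters in Rep.B.

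A cluster is a short stretch of the genome where reads with T-to-C changes pile up, given with its strand, its mean coverage in reads per base and its number of T positions with a transition. A read that fits several places in the genome was reported at 1 of them, so a cluster can stand at a copy of the sequence that the RNA came from. The human genome holds many such copies outside genes. Processed pseudogenes are copies of spliced mRNA written back into a chromosome, nuclear mitochondrial segments are pieces of mitochondrial DNA, and fragments of ribosomal DNA lie scattered over many chromosomes. Nuclear tRNA genes are short genes read by RNA polymerase III, which stops at a run of T just after the gene. GENCODE release 44 lists no nuclear tRNA genes, and RefSeq does.

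The name of the set holds for GENCODE and not for RefSeq. A RefSeq feature lay at 61 of the 107 members in Rep.A (57.0%, 95% Wilson interval 47.5% to 66.0%) and at 104 of the 231 in Rep.B (45.02%, 38.7% to 51.5%). A pseudogene lay at 38 members of Rep.A and 63 of Rep.B. A tRNA gene lay at 19 and 30. A RefSeq lncRNA lay at 3 and 8 members. No RefSeq feature lay at 46 members in Rep.A and 127 in Rep.B.

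The sequences below show the main kinds of clusters. Each is the reference sequence on the strand of the cluster, from hg38, written 5′ to 3′. The first 5 cross the 3′ end of a tRNA gene, and capitals mark the bases past that end.
TRV-AAC1-1, chr3:169772298-169772320, plus strand: aaacaCACTAAAAAATCCCTTTT
TRV-AAC1-4, chr5:181218258-181218284, minus strand: aaccgggcggaaacaAGACTGTGTTTT
TRW-CCA3-3, chr17:8186415-8186441, plus strand: atcacgtcggggtcaGCGGCTATTTTT
TRX-CAT1-5, chr6:27332977-27332999, minus strand: aaccatcctctgctaTGAGTTTT
TRL-CAA1-1, chr6:28896215-28896237, minus strand: atcccacttctgacaCATACTTT

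The next 5 resemble 45S ribosomal RNA, the precursor of the 18S, 5.8S and 28S ribosomal RNA, and capitals mark the bases that differ from it.
Region on chromosome 4, chr4:166142611-166142628, plus strand: TgagaactttgaaggcTg
Region in LOC110467538, chr20:29298780-29298807, minus strand: gTTatttgtctggttaattccgataacg
Region in LOC110467526, chr20:30514434-30514450, minus strand: cagcTggacggtggcca
Region on chromosome 7, chr7:69062649-69062670, plus strand: accctgttgagTttgactctag
Region on chromosome X, chrX:109054368-109054394, plus strand: agacTctgttgagcttgactctagtct

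The next 4 hold mRNA sequence, and the last 5 hold sequence that matched none of the GENCODE transcripts, ribosomal RNA, mitochondrial genome or tRNA genes searched and occurs once in the genome. Capitals mark CATC and CACC, motifs known from YB-1 binding. The last 5 all hold CATC or CACC and do not stand for the unmatched members as a group. Of the 67 in Rep.B, 19 held CATC and 14 held CACC. The unmatched region of highest coverage in both replicates, after POLR3GL, held neither.
Copy of PRELID3B sequence, chr1:220469311-220469332, plus strand: ataaacCACCattaaaaaccag
TPT1P4, chr6:144200374-144200394, minus strand: ttgtCATCcacacaaCACCag
VDAC1P1, chrX:80930813-80930840, plus strand: ttCATCATCATCtcttttaCACCaaaag
Copy of YBX1 sequence, chr15:62954220-62954243, plus strand: aagacctaaagtgcttgctttttg
After KIF1C, chr17:5029566-5029587, plus strand: CACCATCATCttcttccttcag
After WWP2, chr16:69943340-69943365, plus strand: tatcCATCACCATCATCCATCtccag
After LUC7L2, chr7:139424484-139424508, plus strand: cttatcaaCACCaactaaaactaag
Pseudogene LOC107987082, chr9:78219442-78219464, plus strand: tacaaatccttCATCcatacctg
Near PKMP1, chr1:114535449-114535472, minus strand: tttcctaccacactCACCatttag

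The members of Rep.A were mostly found again in Rep.B, and most members of Rep.B were not found in Rep.A. At least 1 base on the same strand was shared with a cluster of the other replicate by 80 of 107 members in Rep.A (74.8%, 65.8% to 82.0%). Over all clusters of Rep.A this share was 80.5%. In Rep.B, 82 of 231 members were found again (35.5%, 29.6% to 41.9%), against 55.5% of all its clusters and 932 of 1658 nuclear clusters inside genes (56.2%, 53.8% to 58.6%). The intervals of members and of clusters inside genes overlapped in Rep.A and did not overlap in Rep.B. These intervals cover counting error only, since PCR copies of a read are not independent molecules. Joined over both replicates, the members formed 256 regions, of which 80 had a member in both, 27 in Rep.A alone and 149 in Rep.B alone.

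Members seen in Rep.B alone had low coverage as a group. Median mean coverage was 10.0 reads per base in the 149 members not found again and 35.4 in the 82 found again. In Rep.A the medians were 7.65 in 27 members and 13.3 in 80. With mean coverage of at least 10, 71 of 146 members of Rep.B were found again (48.6%, 40.7% to 56.7%), and inside genes 863 of 1314 clusters (65.7%, 63.1% to 68.2%). Below 10, 11 of 85 members were found again (12.9%, 7.4% to 21.7%), and inside genes 69 of 344 clusters (20.1%, 16.2% to 24.6%). The intervals of members and genes were apart at the higher coverage and overlapped at the lower.

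Coverage of the regions in both replicates followed the same order in both. Over the 80 members of Rep.A with a partner, Rep.B was higher in 78, with a median log2 difference of 1.39 (SD 0.57), a ratio of 2.63. The 932 pairs inside genes had a median of 1.39 (SD 0.73). Across the 80 pairs, which share 2 libraries and are not independent replicates, Pearson's r of log2 coverage was 0.96 and Spearman's rho was 0.92. Start and end were identical in 51 of the 80 pairs. Median mean coverage of all members was 11.0 in Rep.A and 13.8 in Rep.B, against 12 and 24.5 in nuclear clusters inside genes.

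**Figure D1:**
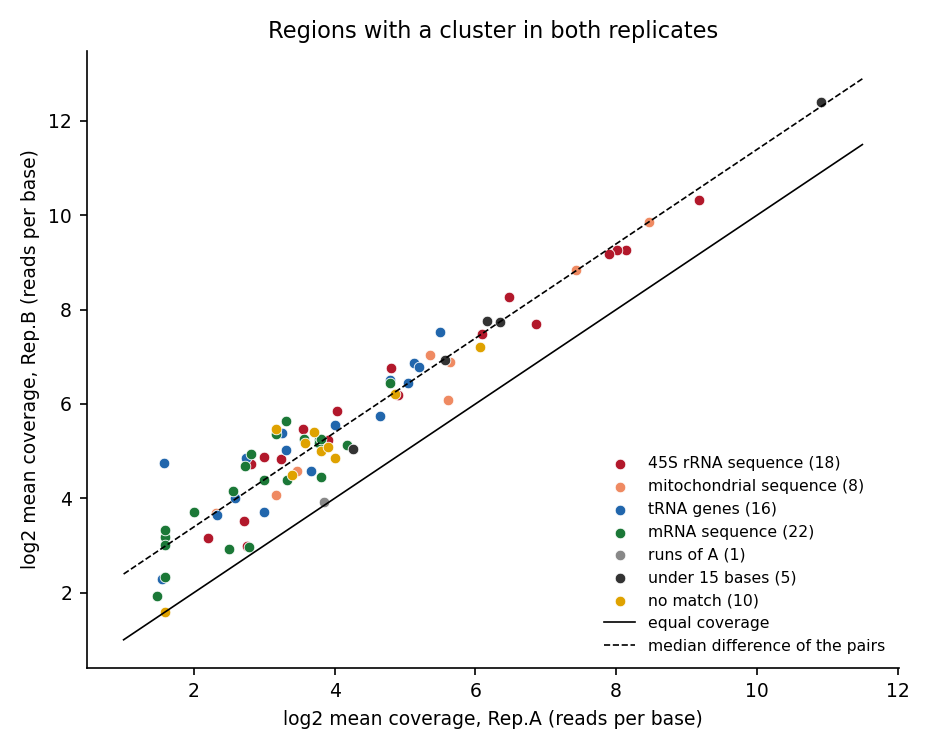
Log2 mean coverage in reads per base of the 80 regions with a member in both replicates, Rep.A on the horizontal and Rep.B on the vertical axis, coloured by sequence group with the number of regions in brackets. The dashed line lies at the median log2 difference of 1.39 above equal coverage, and the points follow it from about 3 reads to the region of 1927 and 5447 reads.

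By exact match over the whole length, 54 of 107 members in Rep.A (50.5%, 41.1% to 59.8%) and 96 of 231 in Rep.B (41.6%, 35.4% to 48.0%) had the sequence of an RNA class. For the groups described below, up to 2 mismatches to 45S ribosomal RNA and the mitochondrial genome were also allowed, members at a RefSeq tRNA gene were grouped by position, and runs of A formed a group. In Rep.A, 19 members held 45S sequence, 10 mitochondrial sequence, 18 tRNA, 29 mRNA sequence and 6 a run of at least 15 A. In Rep.B these numbers were 33, 19, 30, 44 and 23, and 3 more matched BCYRN1, a small cytoplasmic RNA. The sequences of these 3 occur 26 to 46 times in the genome, so their reads cannot be assigned to BCYRN1. Members under 15 bases, too short to be matched, made up 7 of Rep.A and 12 of Rep.B. No match was left for 18 members in Rep.A (16.8%, 10.9% to 25.03%) and 67 in Rep.B (29.0%, 23.5% to 35.2%). This number depends on the rule, since GENCODE transcripts had to match exactly. When 1 mismatch was allowed for every class, members with an RNA class rose from 54 to 67 in Rep.A and from 96 to 137 in Rep.B. Part of this rise falls on members already grouped with 45S sequence.

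The groups differed in how often they were found again. In Rep.B, 19 of 33 members with 45S sequence were found again (57.6%, 40.8% to 72.8%), 16 of 30 at tRNA genes (53.3%, 36.1% to 69.8%) and 22 of 44 with mRNA sequence (50.0%, 35.8% to 64.2%). Of the members with no match, 10 of 67 were found again (14.9%, 8.3% to 25.3%), and of those with a run of A, 1 of 23 (4.3%, 0.77% to 20.99%). The intervals of these last 2 groups did not overlap those of the first 3. With mitochondrial sequence, 8 of 19 were found again (42.1%, 23.1% to 63.7%), an interval that overlaps that of the unmatched members. In Rep.A, 11 of 18 members with no match were found again (61.1%, 38.6% to 79.7%). Among these 11 was a cluster of 59 bases in LOC110467526, which overlapped clusters of Rep.B that were grouped with 45S sequence. Some members of a group hold the same sequence and share reads, which these intervals do not take into account. The differences between groups were not tested.

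**Figure D2:**
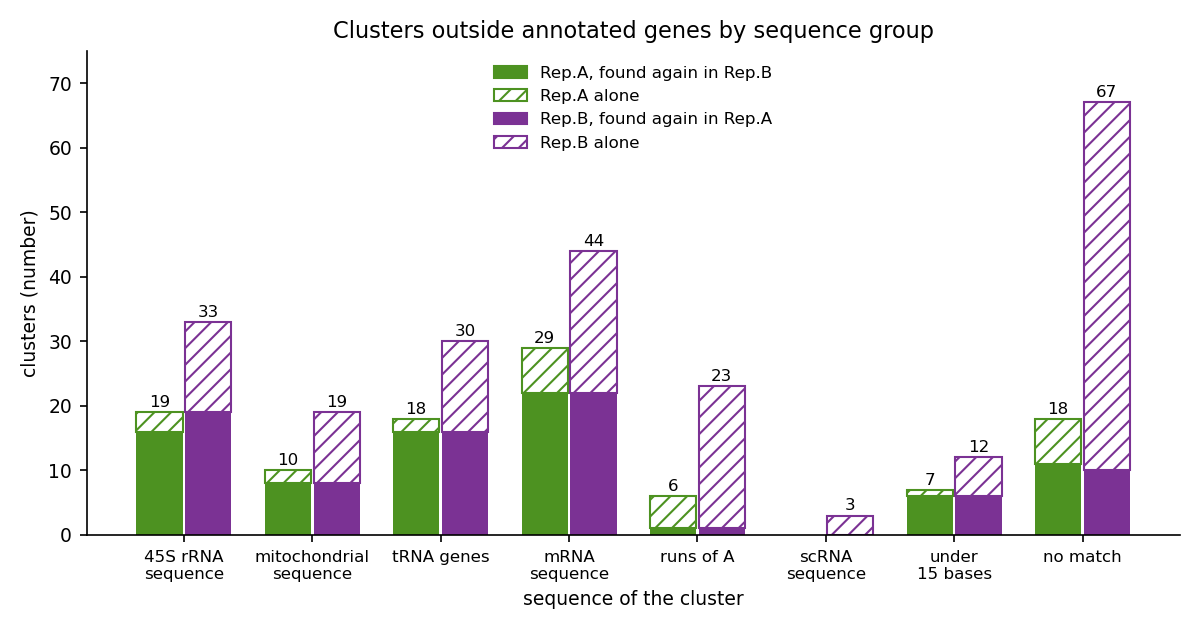
Number of members in each sequence group, for Rep.A (green) and Rep.B (purple), with filled bars for members found again in the other replicate, hatched bars for the others and the total above each bar. Of the 67 unmatched members of Rep.B, 10 were found again, and of the 23 with a run of A, 1 was.

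Many members had identical copies elsewhere. Among members of 15 to 100 bases, the sequence occurred once in the genome for 40 of 100 in Rep.A (40%, 30.9% to 49.8%) and 99 of 219 in Rep.B (45.2%, 38.8% to 51.8%). With 1 mismatch allowed, as a read with a transition has, these shares fell to 24.0% and 22.8%. Of the members with other exact copies, 49 of 60 in Rep.A and 105 of 120 in Rep.B had a copy within a gene on its strand. A cluster of the same replicate stood at another copy for 45 of 60 in Rep.A (75%, 62.8% to 84.2%) and for 99 of 120 in Rep.B (82.5%, 74.7% to 88.3%). These clusters share the reads of 1 sequence and cannot be counted as separate sites.

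Ribosomal RNA sequence gave most of the regions of highest coverage. Of the 10 regions in both replicates with the highest coverage, 6 held 45S sequence, 2 held mitochondrial sequence and 2 had members under 15 bases only. The highest was a region of 10 bases on the minus strand of chromosome 4, chr4:69430965-69430974, where mean coverage was 1927 in Rep.A against 5447 in Rep.B. It was also the highest cluster of each whole table. Its 10 bases occur in 45S ribosomal RNA, as did 13 of the 19 members under 15 bases, a length that fits many places. The other such region among the 10, chrX:109054185-109054196, had 81.6 and 214.

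The region at chr4:166142611-166142628, of 18 bases, followed with 578 in Rep.A against 1281 in Rep.B. It lay 38154 bases from TLL1, and its sequence, printed above, occurs once in the genome and differs from 45S RNA at both capital bases. With 1 mismatch allowed, this sequence occurs 21 times. In LOC110467538, a ribosomal pseudogene on chromosome 20, 7 regions were found, 4 of them in both replicates. Coverage in Rep.A and Rep.B was 284 and 614 at chr20:29298780-29298809, 258 and 612 at chr20:29299466-29299486, 239 and 580 at chr20:29299987-29300006, and 117 and 207 at chr20:29299561-29299584. All 4 were higher in Rep.B. In LOC110467526, another ribosomal pseudogene of this chromosome, the region at chr20:30514434-30514450 had 88.9 and 308.

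Most clusters that only resembled 45S RNA differed from it by a T-to-C change, with T in the genome at the cluster and C in the ribosomal RNA. Of the 19 members with 45S sequence in Rep.A, 5 matched exactly and 14 with 1 or 2 mismatches. Of the 33 in Rep.B, 11 matched exactly and 22 did not. At least 1 such mismatch was present in 12 of the 14 members in Rep.A and in 20 of the 22 in Rep.B. This kind made up 14 of 19 mismatched bases in Rep.A and 24 of 35 in Rep.B. The number of such bases equalled the deposited number of transition positions in 9 of 14 members and in 17 of 22. At these bases an unchanged ribosomal RNA reads as C, the base that is counted as a transition. Whether these reads came from ribosomal RNA was not tested.

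The same pattern was present in clusters inside genes, so it is not particular to the members. Of the clusters inside genes that matched 45S RNA with mismatches, 5 of 6 in Rep.A and 21 of 22 in Rep.B had such a mismatch. Among the members with mitochondrial sequence, 10 of 10 in Rep.A and 17 of 19 in Rep.B matched exactly. Of the remaining 2 in Rep.B, 1 had a T-to-C mismatch of this direction.

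Several ribosomal regions of high coverage had a cluster at their position in 1 replicate alone. In Rep.B, the cluster at chr14:16055237-16055263 in LOC107987204 had a mean coverage of 1792, and that at chr22:11252163-11252189 in LOC102723688 had 642. Both hold the same 27 bases, which occur 3 times in the genome. A sequence of 33 bases at chr5:175115049-175115081, which occurs once exactly and 3 times with 1 mismatch allowed, had 567 in Rep.B. The next members of Rep.B with no partner held mitochondrial sequence at chr17:19600796-19600815, with 208, and 45S sequence at chr12:74953564-74953581, with 178. In Rep.A, the highest member with no partner was a cluster of 82.4 at chr20:29298642-29298672, in LOC110467538, and the next, of 59.2, lay at chr7:69062480-69062513. None of these members shared a base with a cluster of the other replicate on its strand. This holds for the position and not for the sequence. The 20 bases at chr17:19600796-19600815 also stand at chr4:155464609-155464628, where both replicates had a cluster. The sequence at chr14 and chr22 shares a stretch with chr20:29299466-29299486, and that at chr5 with chr20:29298780-29298809. Both of these regions of chromosome 20 were in both replicates.

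Members with mitochondrial sequence lay at places on nuclear chromosomes that matched the mitochondrial genome over the length of the cluster. No annotation of nuclear mitochondrial segments was used, so a longer nuclear copy was not shown for each member. MTRNR2L12 on chromosome 3, a nuclear relative of the mitochondrial 16S ribosomal RNA gene, held 3 regions, all in both replicates. The highest, chr3:96617503-96617523, had 354 in Rep.A and 930 in Rep.B. The next member of this group, chr11:10509612-10509631, lay 1288 bases from MIR4485 and had 173 and 456. At chr4:155465861-155465881 coverage was 40.9 and 131, and at chr4:155464609-155464628 it was 50.0 and 119. Of these regions none had a higher coverage in Rep.A.

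For mitochondrial sequence, the cluster on the mitochondrial chromosome itself was mostly the higher one. Such a partner with the same sequence stood there for 5 members in Rep.A and 11 in Rep.B. The member was over 2-fold lower in 4 of 5 and 8 of 11, and over 2-fold higher in none. The median log2 ratio of member over mitochondrial cluster was -1.78 in Rep.A and -1.34 in Rep.B. The exact copy of the region at chr4:155465861-155465881 lies in MT-RNR1, the gene for 12S ribosomal RNA, where the cluster had 141 in Rep.A and 365 in Rep.B.

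Clusters at nuclear tRNA genes fell on 33 genes, and 16 of these had a member in both replicates. The strand of the tRNA gene could be set from its B box, an internal promoter sequence, for 47 of the 49 members, and all 47 lay on the strand of the gene. The other 2 members lay at TRT-TGT2-1, whose strand was not settled and which was read as on the plus strand for its place. By their centre, members lay before the middle of the gene or after it, and others crossed an end of the gene. Members of Rep.A numbered 4 before the middle, 7 after it, 7 past the 3′ end and 1 across the 5′ end. In Rep.B these numbers were 9, 11, 10 and 0.

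A tRNA precursor carries a trailer after the 3′ end of the gene, which is removed when the tRNA matures and replaced by the bases CCA. Members that crossed the 3′ end lay at 11 genes, 6 of them in both replicates. They reached 3 to 18 bases past the end in Rep.A, and in Rep.B 2 to 18. Of the 17 members, 11 from 7 genes reached 6 to 18 bases past the end. The other 6, at TRC-GCA2-4, TRN-GTT2-5, TRK-CTT2-1 and TRE-CTC1-6, passed it by 2 or 3 bases, and whether their reads held a trailer or the CCA of a mature tRNA was not tested. The sequence occurs once in the genome for 13 of the 17 members, and for 10 of them, from 6 genes, also when 1 mismatch is allowed. At 6 genes the cluster ended in at least 3 T. In 12 of the 17 members, from 7 genes, the cluster began so that exactly 15 bases of the gene were included, and none of the 12 had G before its first base.

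The coverage of the clusters across the 3′ end was lower in Rep.A at each of the 6 genes. TRV-AAC1-1, a valine tRNA gene, had 9.52 (Rep.A) and 41.9 (Rep.B) reads per base. TRV-AAC1-4 had 9.89 and 32.7. TRW-CCA3-3, for tryptophan, had 2.96 and 26.7. TRX-CAT1-5, for methionine, had 6.65 and 28.8. TRK-CTT2-1, for lysine, had 34.9 and 116, and TRE-CTC1-6, for glutamate, 36.7 and 110. TRL-CAA1-1, for leucine, had 67.1 in Rep.B and no cluster in Rep.A. The tRNA genes as a group had the largest median log2 difference between the replicates of the groups with at least 6 pairs, 1.57 (SD 0.61, 16 pairs), which lies within 1 SD of that of all members.

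**Figure D3:**
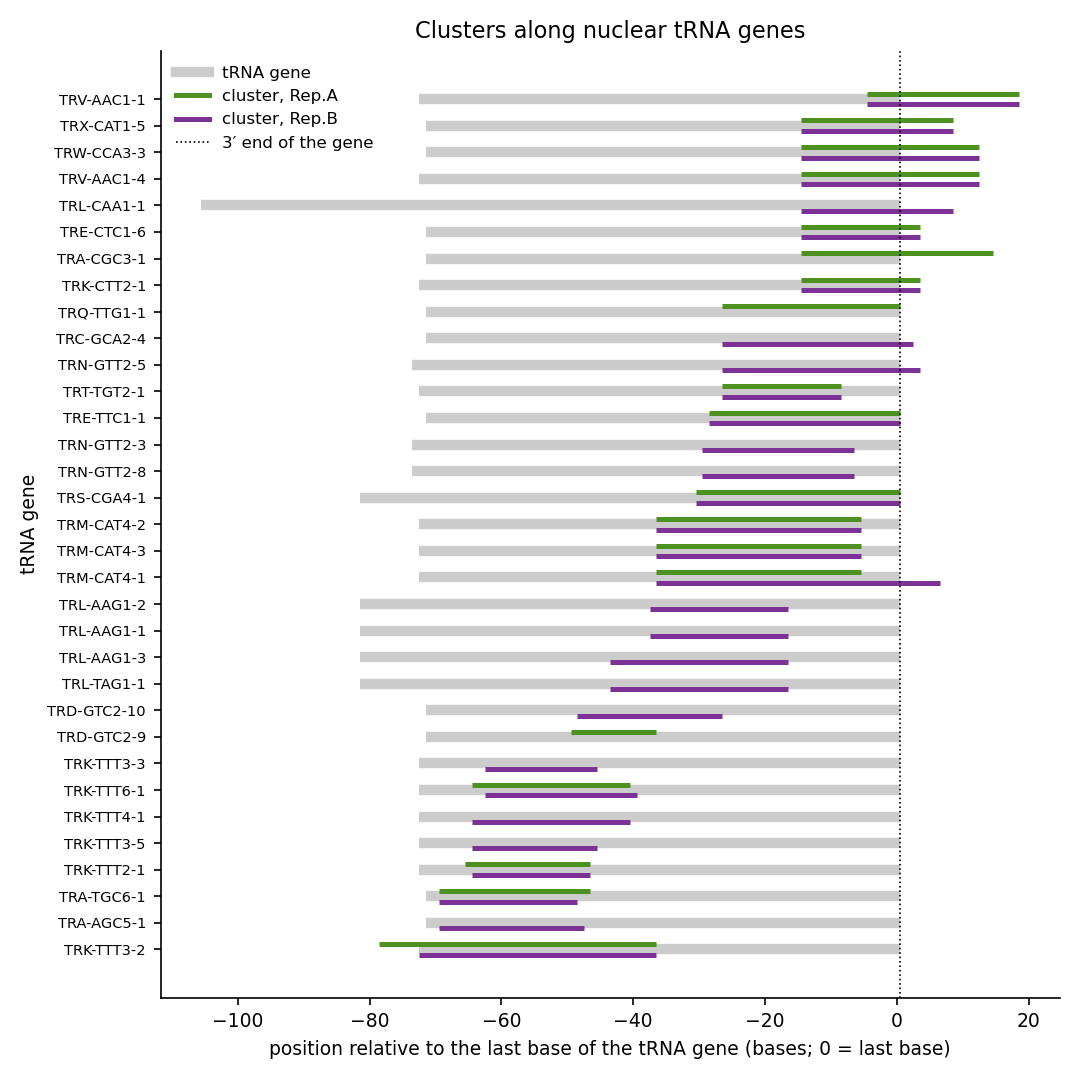
Members at nuclear tRNA genes, 1 row per gene, in bases from the last base of the gene, with the gene in grey, clusters of Rep.A in green and of Rep.B in purple. The clusters of TRV-AAC1-4, TRW-CCA3-3, TRX-CAT1-5, TRK-CTT2-1 and TRE-CTC1-6 start at the same distance from the 3′ end, and those of the TRK-TTT genes lie nearer the 5′ end. The strand of TRT-TGT2-1 was not settled, and its row is drawn as if on the plus strand.

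Within tRNA genes, the highest coverage was at TRE-TTC1-1 (glutamate), with 45.4 in Rep.A and 184 in Rep.B over bases 44 to 72 of 72. TRS-CGA4-1 (serine) had 27.5 and 91.0 over bases 52 to 82 of 82, and its sequence occurs once in the genome. TRA-TGC6-1 (alanine) had 33.0 and 87.0 near its 5′ end. TRM-CAT4-2 and TRM-CAT4-3 (methionine) have the same sequence there, with 8 and 6 in Rep.A and 13.0 and 16 in Rep.B. At TRK-TTT3-2 (lysine), the cluster of Rep.A began 6 bases before the gene, in the leader, and that of Rep.B at its first base.

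Members with mRNA sequence formed 51 regions, which matched transcripts of protein-coding genes, and 22 regions were in both replicates. Counting only the first-named gene of each region, there were 36 different genes. A RefSeq pseudogene lay at 33 of the 51. For 41 regions the nearest GENCODE gene was a pseudogene that ended before the region on the same strand, at a median distance of 233 bases (27 to 1788). These 41 regions thus lay past the GENCODE end of a pseudogene. Whether that pseudogene is a copy of the matched gene was not tested. The sequence of every member of this group had another exact copy within a gene on its strand.

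The parent genes encode proteins of many kinds. PRELID3B encodes a mitochondrial protein, and its sequence at chr1:220469311-220469332 had the highest coverage among the regions of the group in both replicates, 27.5 in Rep.A and 86.5 in Rep.B. Sequence of TUBB, which encodes a beta-tubulin, gave 2 regions in TUBBP2. One had 14 (Rep.A) and 22 (Rep.B). The other one had 9 and 41. TPT1P4, a copy of the TPT1 gene for translationally controlled tumor protein, had 13.7 and 36. SERBP1P1 had 13.9 and 38, and HAX1P1 had 9.91 and 49.6. RPS27 encodes a ribosomal protein, and its copies RPS27P11 and RPS27P13 had 7.96 and 7 in Rep.A and 20.9 and 30.8 in Rep.B. In Rep.A alone, PTP4A2P1 had 26.3 and VDAC1P1, a copy of a gene for a mitochondrial channel, had 20.7. In Rep.B alone, EIF4HP1, a copy of the gene for a translation initiation factor, had 94.2.

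Sequence of YBX1, the gene of YB-1 itself, was among them. The region at chr15:62954220-62954243 had 6.62 reads per base in Rep.A, 25.7 in Rep.B and occurs at 1 other place, in a gene on the same strand. Neither replicate had a cluster at that other place. The mRNA of YBX1 and this copy cannot be told apart by these 24 bases.

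Where the copy in a protein-coding gene had a cluster too, coverage at the member and at that copy was mostly alike. The member was within 2-fold of it in 15 of 21 cases in Rep.A and in 23 of 35 in Rep.B. It was over 2-fold higher in 5 and 6 cases and over 2-fold lower in 1 and 6. The median log2 ratio was 0.17 in Rep.A and -0.08 in Rep.B. At the second TUBBP2 region, 41 reads in Rep.B stood beside 41 in TUBB. At PRELID3B the copy outside genes was the higher, with 86.5 in Rep.B beside 14.9. At HAX1P1 it was the lower, with 49.6 in Rep.B beside 98.5.

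**Figure D4:**
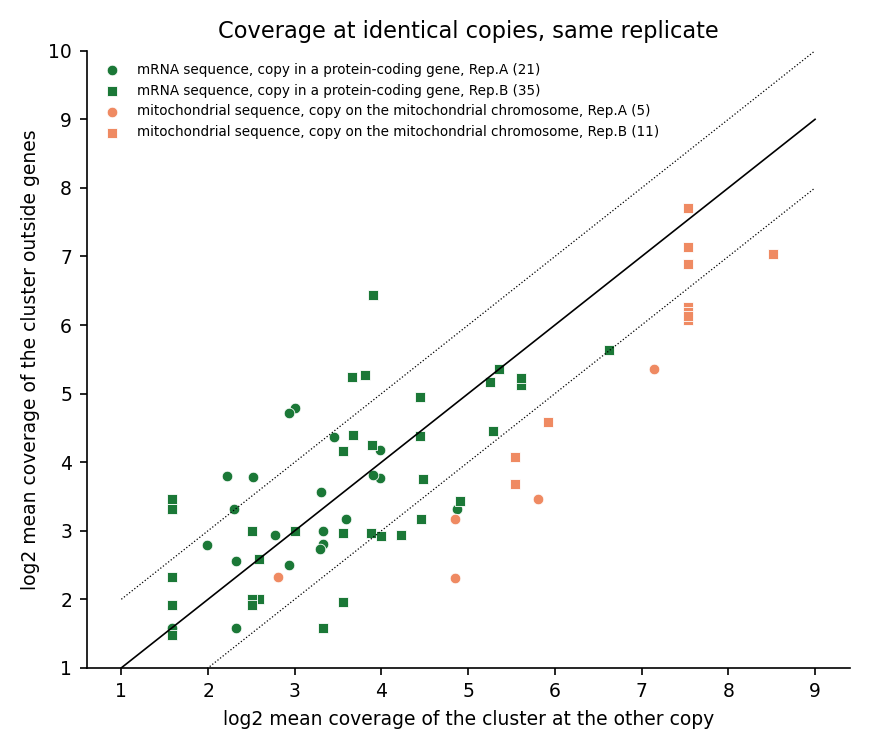
Log2 mean coverage of members against that of the cluster at an identical copy in the same replicate, for mRNA sequence (green, copy in a protein-coding gene) and mitochondrial sequence (orange, copy on the mitochondrial chromosome), with circles for Rep.A and squares for Rep.B. The solid line marks equal coverage and the dotted lines a 2-fold difference. Green points lie around the solid line, with 15 of 21 in Rep.A and 23 of 35 in Rep.B within 2-fold, and no orange point lies over 2-fold above it.

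Members with a run of A were wide and low, and nearly all stood in 1 replicate. Their longest run had a median of 31.5 bases in the 6 of Rep.A and 41 in the 23 of Rep.B, and the median width was 51.0 and 55.0 bases. Mean coverage ranged over 3.57 to 14.4 in Rep.A, and in Rep.B over 2.98 to 15.2. The only region in both replicates lay on chromosome 4, from 165784418 to 165784472, with 14.4 in Rep.A and 15.2 in Rep.B, a log2 difference of 0.07, below the median of all pairs. Inside genes such runs were present in 9 of 1162 clusters in Rep.A and 34 of 1658 in Rep.B.

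The members with no match formed 74 regions, of which 10 were in both replicates. All 10 occur once in the genome. The highest was chr1:145982430-145982446, 3582 bases past the end of POLR3GL on its strand, with 66.7 in Rep.A and 149 in Rep.B. POLR3GL encodes a subunit of RNA polymerase III. Next came chr9:78219442-78219464 in LOC107987082, a pseudogene, with 29 and 74. Both are also among the 10 unique regions of highest coverage that matched no RNA class exactly. Of the other 8 of those, 7 held 45S sequence with mismatches, such as chr7:81333684-81333704 with 28 and 109, and 1 was TRK-CTT2-1. One of the 7 lay on chromosome 8, from 55842589 to 55842611, 16146 bases from TGS1, with 14.9 and 37.65.

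Several unmatched regions lay shortly after the end of a gene on its strand, where transcription often runs past the annotated end. Whether their reads came from such transcription was not tested. At any distance, unmatched members lay after a gene on its strand in 44.4% of cases in Rep.A and 46.3% in Rep.B. Over all members these shares were 44.9% and 42.4%. All members include the unmatched ones and those with mRNA sequence, where 41 of 51 regions lay after a pseudogene on their strand. Whether this place was more frequent in unmatched members than in the other groups was not tested. Within 5000 bases of such an end lay 17 of the 74 regions, of which 14 followed a protein-coding gene and 16 occur once in the genome. Of the 17, 5 were in both replicates. In Rep.A, 5 of 5 such members were found again, and 6 of 13 elsewhere. In Rep.B, 5 of 17 were found again (29.4%, 13.3% to 53.1%), and 5 of 50 elsewhere (10.0%, 4.3% to 21.4%), with intervals that overlap.

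The region after KIF1C, which encodes a kinesin motor protein, lay 1165 bases past the gene with 12 in Rep.A and 36 in Rep.B. The region after WWP2, a ubiquitin ligase gene, lay 1599 bases past it with 14 and 32. The region after LUC7L2, a splicing factor gene, lay 1027 bases past it, in the RefSeq lncRNA LOC100129148, with 15 and 33.8. A region 5475 bases past MRPL36 had 9 and 44, and one 14447 bases past CDK1 had 10.5 and 22.4. On the strand opposite to MCM3, 585 bases before the gene, coverage was 16 and 29. In Rep.B alone, regions followed MTURN with 39, DDRGK1 with 23, WDR43 with 22, EBNA1BP2 with 21 and PES1 with 14. Among unmatched members of Rep.A with no partner, the highest was chr7:143037638-143037655, with 29.6. Read by eye, 5 unmatched members of Rep.B resemble library adapters or primers (on chromosomes 2, 7, 11 and 17, that on 7 the adapter named in the study's methods) or bacterial ribosomal RNA (on 20). Their coverage was 15.7 to 82.4, none was found again, and no reference was at hand to compute the match. Without them, unmatched members of Rep.B numbered 62 of 226 (27.4%, 22.03% to 33.6%), of which 10 were found again (16.1%, 9.0% to 27.2%), and 16 regions lay shortly after a gene.

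Over all members, the nearest gene was on the same strand and ended before the member in 48 of 107 cases in Rep.A (44.9%, 35.8% to 54.3%) and in 98 of 231 in Rep.B (42.4%, 36.2% to 48.9%). The member lay before a gene of its strand in 25 and 54 cases. It lay after a gene of the opposite strand in 14 and 36 cases, and before one in 20 and 43. A gene lay within 1000 bases of 40 members of Rep.A and 71 of Rep.B, and within 5000 bases of 66 and 129. With the nearest protein-coding gene instead, the share after a gene on its strand fell to 14.0% in Rep.A and 25.5% in Rep.B.

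CATC was less frequent in the members than in clusters inside genes. Among clusters of at most 60 bases, which included all members, CATC was present in 21 of 107 members in Rep.A (19.6%, 13.2% to 28.1%) and 43 of 231 in Rep.B (18.6%, 14.1% to 24.1%). Over all clusters the shares were 36.1% and 32.7%, and inside genes 39.5% (36.7% to 42.3%) and 35.8% (33.5% to 38.1%). CACC was present in 24 members in Rep.A (22.4%, 15.6% to 31.2%) and 52 in Rep.B (22.5%, 17.6% to 28.3%), against 35.5% and 33.9% of all clusters. Median width was 23 and 22 bases in members and 22 in both replicates inside genes.

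The shares varied with the sequence group. CATC was in 0 of 19 members with 45S sequence in Rep.A and 0 of 33 in Rep.B, and in 7 of 29 and 9 of 44 with mRNA sequence. With mitochondrial sequence it was in 3 of 10 and 9 of 19 (47.4%, 27.3% to 68.3% in Rep.B), and CACC in 5 of 10 and 12 of 19 (63.2%, 41.04% to 80.9% in Rep.B). Of the members with no match, CATC was in 7 of 18 in Rep.A (38.9%, 20.3% to 61.4%) and 19 of 67 in Rep.B (28.4%, 19.0% to 40.1%). These intervals include the shares of all clusters. CACC was in 7 of 18 of them in Rep.A (38.9%, 20.3% to 61.4%) and in 14 of 67 in Rep.B (20.9%, 12.9% to 32.1%). The last interval lies below the 33.9% of all clusters of Rep.B. In the region after KIF1C, CACC runs straight into CATC, and the region after WWP2 holds several copies, as the capitals above show.

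The last base of a cluster, where RNase T1 cuts after G, separated the groups further. It was G in 61 of 107 members in Rep.A (57.0%, 47.5% to 66.0%) and 105 of 231 in Rep.B (45.5%, 39.2% to 51.9%). Over all clusters it was G in 83.1% and 77.7%, and inside genes in 88.2% (86.2% to 89.9%) and 83.6% (81.7% to 85.3%). With mRNA sequence, 27 of 29 members in Rep.A (93.1%, 78.04% to 98.1%) and 41 of 44 in Rep.B (93.2%, 81.8% to 97.7%) ended in G. With 45S sequence this held for 5 of 19 and 6 of 33, and at tRNA genes for 6 of 18 and 7 of 30. Of the 23 members with a run of A in Rep.B, 1 ended in G, and of the 67 with no match 33 did (49.3%, 37.7% to 60.9%). The base before the first was G in 38.3% and 37.2% of members, against 43.98% and 42.3% inside genes.

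**Figure D5:**
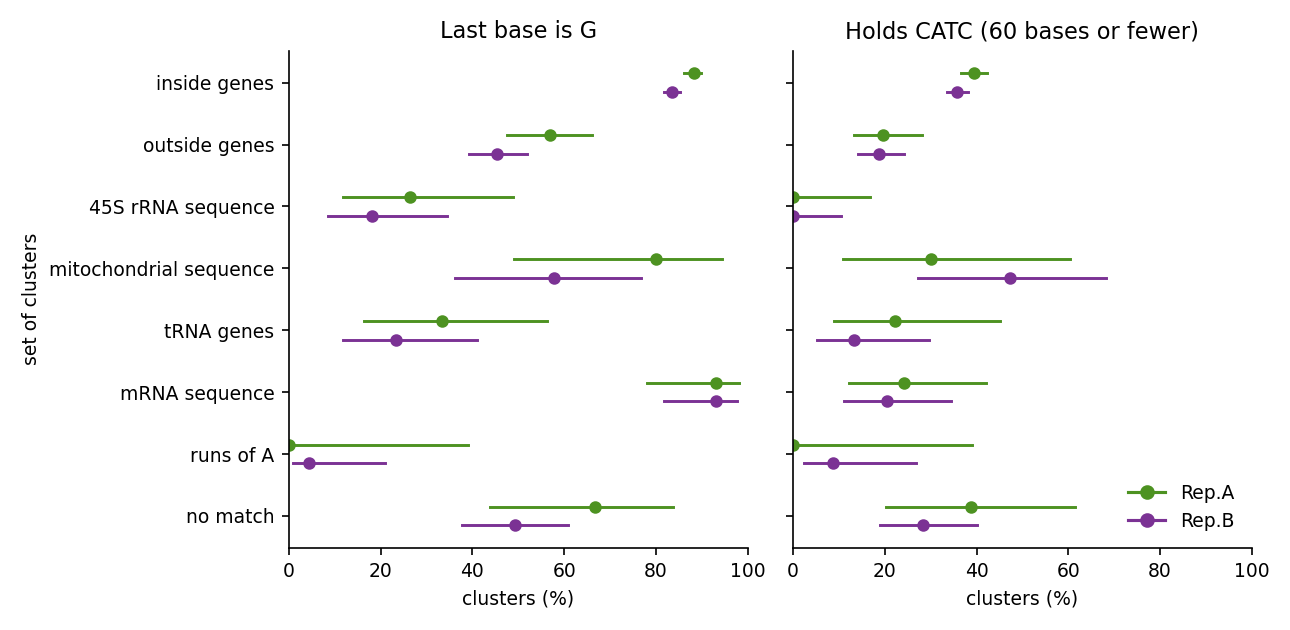
Percentage of clusters whose last base is G (left) and of clusters of at most 60 bases that hold CATC (right), with 95% Wilson intervals, for nuclear clusters inside genes, all members and 6 sequence groups, Rep.A in green and Rep.B in purple. Members with mRNA sequence ended in G in 93.1% and 93.2%, against 88.2% and 83.6% inside genes, and those with 45S sequence or a run of A seldom do.

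Few members had more than 1 T position with a transition. There were 2 or more in 7 of 107 members in Rep.A (6.5%, 3.2% to 12.9%) and 25 of 231 in Rep.B (10.8%, 7.4% to 15.5%), against 13.8% and 14.5% of all clusters. In both replicates together, 3 regions had 2 or more in each. These were the region after KIF1C, chr2:132279186-132279208 with 4.57 and 8.96, and chr22:11251789-11251817 with 9.41 and 28.7, of which the last 2 hold 45S sequence. The highest of the members that matched BCYRN1, on chromosome 18 from 66622155 to 66622176, had 4.91 in Rep.B and no cluster in Rep.A. Its sequence occurs 26 times in the genome.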

How the data were processed

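YB-1 PAR-CLIP clusters of HEK293T wt cells were compared over 2 replicates. Per the labels and the study's methods, reads were trimmed by the authors (cutadapt 2.10) and mapped to hg38 (Bowtie 1.0.0), and wavClusteR was run on each library alone. Mean coverage as deposited is an unscaled signal, in reads per base. The deposited numbers of transition positions and of T bases are counts, the deposited crosslinking efficiency is a fraction, and the deposited log odds are a score. Library totals were not used, and the relative depth was read from the paired clusters. Reads were reported at 1 place each.

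Members were selected against 62700 GENCODE release 44 gene spans. Each cluster's sequence was checked against hg38 and turned to its own strand. The genome was searched on both strands for exact copies of sequences of 15 to 100 bases, as were GENCODE transcripts. The sequences were also compared with 45S RNA, the mitochondrial genome and RefSeq tRNA genes, and positions with 59074 RefSeq features (GRCh38.p14). Where a sequence matched several, ribosomal RNA, mitochondrial sequence and tRNA came first. Up to 2 mismatches were allowed from 18 bases and 1 below that, for ribosomal and mitochondrial sequence. Shares have 95% Wilson intervals, and no test was run. The search was tested on simulated data with planted matches.

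The regions named are the 10 in both replicates of highest coverage, the 10 of these once in the genome with no exact RNA class, the highest of each class, up to 5 with 2 or more transition positions in both, and the 5 highest members of each replicate with no partner. Members that resemble adapters, primers or bacterial RNA were picked by eye. Other regions were chosen after their values were seen, as were the sequence groups and the sequences shown. The members and lists were chosen with earlier results of these data known. Alternatives covered gene spans, overlap, coverage, score, copies, matching, motif width and single replicates. Computations used numpy 2.4.6, scipy 1.17.1 and pandas 2.3.3 under Python 3.11.15, and plots matplotlib 3.10.9.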

Additional observations from a re-analysis of the deposited data

How the results depend on the processing

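No paired analysis was possible because the PAR-CLIP data have 1 condition and no test was run. Of 81 values under alternatives, 40 stayed within the range of the main value and 41 moved, and 4 of the 81 were chosen after seeing the data. With same-strand spans only, there were 184 members of Rep.A, 377 of Rep.B and 131 regions in both. Spans widened by 1000 bases left 67 members in Rep.A and 47 regions in both. Spans widened by 5000 bases left 41 and 102 members, found again in 61.0% and 25.5%, and 25 regions. Outside RefSeq spans too, 46 and 127 members were left, 25.98% of Rep.B was found again, and 33 regions were in both. With coverage of at least 10, there were 57 and 146 members, found again in 84.2% and 48.6%, and 48 regions. At or above the median relative log odds there were 52 and 110 members and 28 regions. With sequences once in the genome there were 40 and 99 members, 26.3% of Rep.B was found again, and 26 regions were in both. The share with CACC was then 12.5% and 15.2%, that with last base G 42.5% and 36.4%, and that with G before the first base 30.3% in Rep.B. With identical start and end, 47.7% and 22.1% were found again, in 51 regions. Leaving out 1 replicate gave 107 to 231 regions. With 1 mismatch allowed, 24.0% and 22.8% occurred once. Members with no RNA class held CACC in 15.2% and 14.6%. With the nearest protein-coding gene, 14.0% and 25.5% lay after it on its strand. The cause of these shifts was not tested beyond the smaller or larger sets compared. Of the 149 members of Rep.B with no partner, 59 would lie below the lowest member of Rep.A (2.78 reads per base) after division by the paired ratio of 2.63, and cannot be told from clusters below its depth. The other 90 would lie at or above it. That value is the lowest of any member of Rep.A, and not a depth above which every cluster is called. Whether depth kept these 90 from being called in Rep.A was not tested.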
